A study of Homo sapiens with 6 samples.

Results

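The CCN family is a group of 6 secreted matricellular proteins whose genes appear in the files under their older symbols CYR61, CTGF, NOV, WISP1, WISP2 and WISP3, now CCN1 to CCN6. The members were found by those symbols, and all 6 were present among the 57290 genes listed. Their transcripts were followed in KMM1, an established human multiple myeloma line, in 6 libraries of polyadenylated RNA. In 3 libraries, called control here, the cells had received a lentivirus carrying the empty vector WPI; in the other 3 the lentivirus expressed TAZ, a co-activator of TEAD transcription factors encoded by WWTR1. All cells were of the same line and all were transduced, and RNA was extracted 4 days later. The sources used here do not name the promoter of the vector, the share of cells that took up virus or the use of separate cultures. The p-values therefore reflect the spread between these libraries, which may be technical.

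CCN proteins are built from modules shared with insulin-like growth factor binding proteins, von Willebrand factor type C, thrombospondin type 1 and cystine-knot proteins, and in the gene the modules follow the exons. They are not structural parts of the matrix. They bind integrins, heparan sulphate proteoglycans and growth factors at the cell surface and change how cells adhere, migrate and respond to those factors. CYR61 and CTGF are textbook targets of YAP and TAZ acting through TEAD factors, whereas WISP1 was described as a gene induced by Wnt signalling. In bone, CCN proteins act on osteoblasts and on blood vessels.

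CYR61 and CTGF are close relatives that behaved very differently in level, so stretches of both are shown. Exon 4, counted from the 5′ end, codes for the thrombospondin type 1 module in each gene and lies wholly in coding sequence. The exon is 209 bases long in CYR61 and 212 in CTGF (GENCODE release 29 transcripts). An alignment of 215 columns held 129 identical bases, or 60% of the columns. Capitals mark the longest run of identical bases that the exons share, 15 bases.
CYR61 exon 4: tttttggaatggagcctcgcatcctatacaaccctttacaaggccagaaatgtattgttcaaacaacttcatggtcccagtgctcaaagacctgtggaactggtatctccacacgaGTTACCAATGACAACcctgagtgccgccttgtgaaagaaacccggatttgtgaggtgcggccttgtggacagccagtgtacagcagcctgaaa
CTGF exon 4: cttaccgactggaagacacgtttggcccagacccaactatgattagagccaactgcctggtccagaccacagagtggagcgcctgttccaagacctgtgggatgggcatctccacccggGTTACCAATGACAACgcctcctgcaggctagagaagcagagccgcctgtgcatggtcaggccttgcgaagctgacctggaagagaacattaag
Over whole transcripts the longest run shared by CYR61 and CTGF was 18 bases, and the longest shared by any pair of members was 22 bases, between CTGF and WISP2.

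The promoter of CTGF is shown because it carries the letters that TEAD factors recognise. Of the 6 members, CTGF (as CCN2) and WISP3 (as CCN6) were matched in the RefSeq promoter table of GRCh38.p14; not matched were CYR61, NOV, WISP1 and WISP2. The 250 bases upstream of the CTGF start are at chr6:131951373-131951622, minus strand, and are written 5′ to 3′ in the direction of transcription. Capitals mark the TEAD core, searched as GGAATG and CATTCC to cover both strands.
CTGF promoter: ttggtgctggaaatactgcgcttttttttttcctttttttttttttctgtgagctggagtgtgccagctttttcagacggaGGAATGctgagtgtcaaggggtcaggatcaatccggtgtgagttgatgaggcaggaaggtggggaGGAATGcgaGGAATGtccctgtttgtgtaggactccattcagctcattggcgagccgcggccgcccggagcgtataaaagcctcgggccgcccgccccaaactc
The CTGF window held 3 copies, 169, 104 and 95 bases before the start. The WISP3 window (chr6:112053854-112054103, plus strand) held 1 copy, 128 bases before the start. Among 35116 promoter windows of this length, 11.9% held at least 1 copy and 29 windows (0.0826%) held at least 3. Neither window held the AP-1 letters TGANTCA, found in 6.57% of windows, or the CArG box bound by SRF, found in 1.16%. A match is a description of the letters only.

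The libraries held 1099.95 to 2033 megabases of aligned sequence. TPM, a measure of transcript abundance that allows for length and depth, was summed per gene and scaled between libraries. The 19390 genes whose mean reached 1 TPM entered a limma test on log2(scaled TPM + 1). WWTR1 was at 2.35, 1.21 and 1.40 scaled TPM in control libraries 1, 2 and 3 and at 365, 138 and 145 with TAZ. Its level thus matched the group named in the label of each library. Among the tested genes 436 were higher (2.25%) and 187 lower (0.964%) at an adjusted p under 0.05, a split that was 533 and 85 without scaling, when the median log2 difference of tested genes moved from -0.05 to 0.17. Groups did not overlap for 24.9% of tested genes. At an unadjusted p under 0.05, limma put 7.46% of tested genes higher and 10.5% lower. Of the 6 members, 2 passed the abundance filter, and 1 of these was higher (CYR61) and 1 lower (WISP1). CTGF, NOV, WISP2 and WISP3 had means below 1 TPM.

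In the control libraries WISP1 supplied nearly all CCN transcripts, and in the TAZ libraries CYR61 did. The share of WISP1 in the summed scaled TPM of the 6 genes was 98.8%, 97.1% and 98.2% in control libraries 1, 2 and 3 and 4.04%, 5.17% and 5.64% in TAZ libraries 1, 2 and 3. The share of CYR61 was 1.06%, 2.49% and 1.24% in the controls and 95.9%, 94.7% and 94.2% in the TAZ libraries. No control library came near any TAZ library in either share. The summed level of the family was 139, 134 and 96.3 scaled TPM in the controls and 498, 473 and 441 in the TAZ libraries. The means were 123 ± 23.4 and 471 ± 28.5 (SD, n = 3), 3.82 times as high with TAZ. This ratio mixes a gene that rose with one that fell, and shares are given as a description, with no test.

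**Figure D1:**
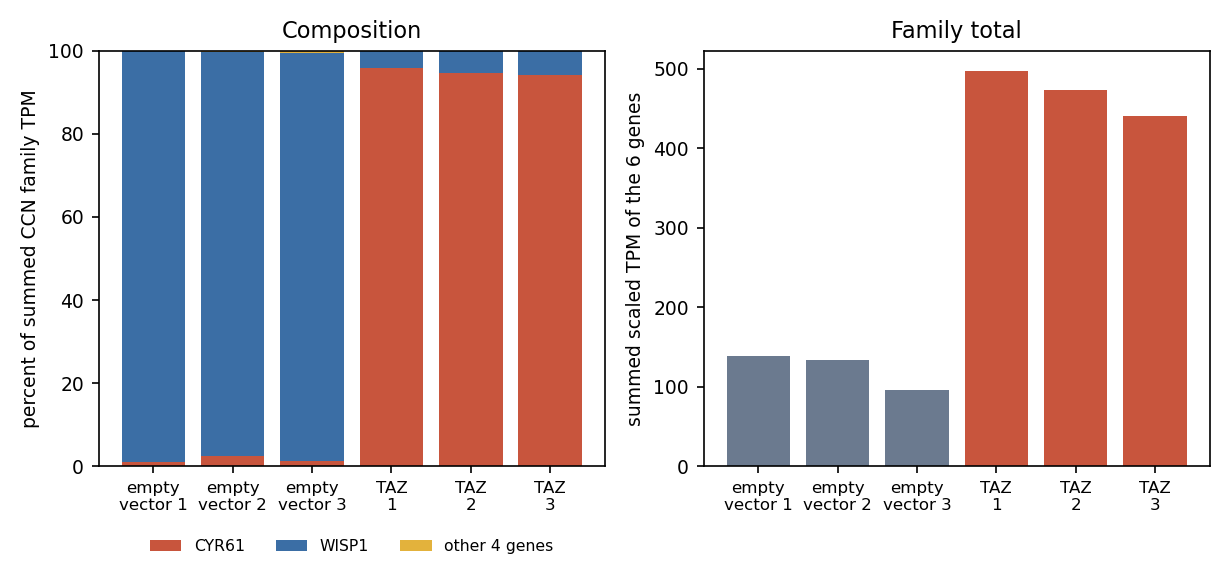
Composition of the CCN family in each library: the left panel gives the percent of the summed TPM of the 6 genes held by CYR61, by WISP1 and by the other 4 genes together, and the right panel the summed scaled TPM. WISP1 fills 97.1% to 98.8% of each control bar and CYR61 94.2% to 95.9% of each TAZ bar, while the total is higher in all 3 TAZ libraries.

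CYR61 (CCN1, ENSG00000142871.11, chromosome 1, 86046444 to 86049645, plus strand, hg19) promotes adhesion and the growth of blood vessels through integrins. Its level was 1.47, 3.33 and 1.19 scaled TPM in the controls and 477, 448 and 416 in the TAZ libraries. The lowest TAZ library stood far above the highest control, and the 3 TAZ libraries lay close together. The log2 difference was 7.29 ± 0.28 (SE), with a limma adjusted p = 1.69e-04, and the ratio of the group means was 224. Among all 57290 genes ordered by TPM, CYR61 stood at rank 14031 to 18047 in the controls and at rank 203 to 245 with TAZ. In RNA from a whole culture, fewer cells expressing a gene and less RNA per cell cannot be told apart, for this gene and for those that follow.

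CYR61 has a long and a short annotated form. The full-length transcript ENST00000451137.2 has 5 exons and 2290 bases. It was at 1.47, 1.63 and 0.347 scaled TPM in the controls and held 100% of the CYR61 signal in every TAZ library. A short form, ENST00000480413.1, has 2 exons (86046883 to 86047782) and carries no coding annotation in GENCODE release 29. It was listed at 0, 1.70 and 0.843 scaled TPM in the controls, where it made up 51.0% and 70.8% of CYR61 in control libraries 2 and 3, and at 0 in all TAZ libraries. The short form overlaps exons 2 and 3 of the long one, so the division of control signal between the forms depends on how shared reads were assigned.

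Depth along the long CYR61 transcript, the mean number of reads over a base divided by the gigabases aligned in that library, was read exon by exon. In all controls exons 1, 2 and 4 of that form were listed at 0, and exon 3 was above 0 in control library 1 only, at 1.13. In control libraries 2 and 3 the short form held depth over the same region: 0.353 and 0.329 on its first exon, which covers exon 2, and 1.93 and 0.604 on its second, which lies inside exon 3. Exon 5, which holds the cystine-knot module and the 3′ untranslated region, had 1.08, 1.52 and 0.320 in the controls. In TAZ libraries 1, 2 and 3 exon 4 had 255, 313 and 257, and exon 5 had 254, 318 and 257. These exons lay close together within each TAZ library. Before division by gigabases, exons 4 and 5 had the same depth in TAZ library 3, 315.531. Exons 3 and 4 likewise had the same depth in TAZ library 2, 353.93. Depths equal to that many digits cannot be taken as separate readings of each exon. Exon 3, which codes for the von Willebrand factor type C module, was the deepest in TAZ libraries 1 and 3, at 438 and 518, against 313 in TAZ library 2. The 5′ end was shallower and uneven: exon 1 had 65.8, 32.7 and 25.8, and exon 2, which codes for the growth factor binding module, had 72.0, 2.15 and 1.77. In exon 2 the SD exceeded the mean, at 25.3 ± 40.4 (n = 3) in the TAZ libraries.

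CTGF (CCN2, ENSG00000118523.5, chromosome 6, 132269316 to 132272513, minus strand, hg19) drives matrix production and scarring and is, with CYR61, the usual reporter of YAP and TAZ activity. Here it stayed near 0 in both groups. Its level was 0.00794, 0 and 0 scaled TPM in the controls and 0.150, 0.188 and 0.148 in the TAZ libraries, so every TAZ library was above every control at a level far under 1 TPM. The amount of sequence behind these values was 16.3, 0 and 0 aligned bases in the controls and 287, 279 and 251 in the TAZ libraries. In the same TAZ libraries CYR61 had 891404, 651000 and 689031 aligned bases. On the TPM scale, which allows for length, mean CYR61 was 447 ± 30.8 and mean CTGF 0.162 ± 0.0223 with TAZ (SD, n = 3).

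The CTGF bases lay almost wholly on the last exon, exon 5, which is 1385 bases long with 294 of them coding. Its depth was 0.00686, 0 and 0 per gigabase in the controls and 0.129, 0.169 and 0.148 in the TAZ libraries. Exons 1 and 2 were above 0 in TAZ library 2 only. Exons 3 and 4 were listed at 0 in all 6 libraries, including the exon 4 printed above, whose counterpart in CYR61 reached 313. The fit without an abundance filter, which took in 46603 genes and called 0.755% of them in either direction, called 0 of the 4 low members. In that limma fit CTGF had a log2 difference of 0.21 ± 0.04 (adjusted p = 0.110), and it was the 1 low member with an unadjusted p under 0.05, a threshold that 9.82% of genes in this fit passed. The size of that difference follows the pseudocount, at 1.35 with 0.1 and 3.82 with 0.01. A listed 0 is not proof of no reads, since among 2712 genes that averaged 50 TPM or more, 24 were also listed at 0 in some library.

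**Figure D2:**
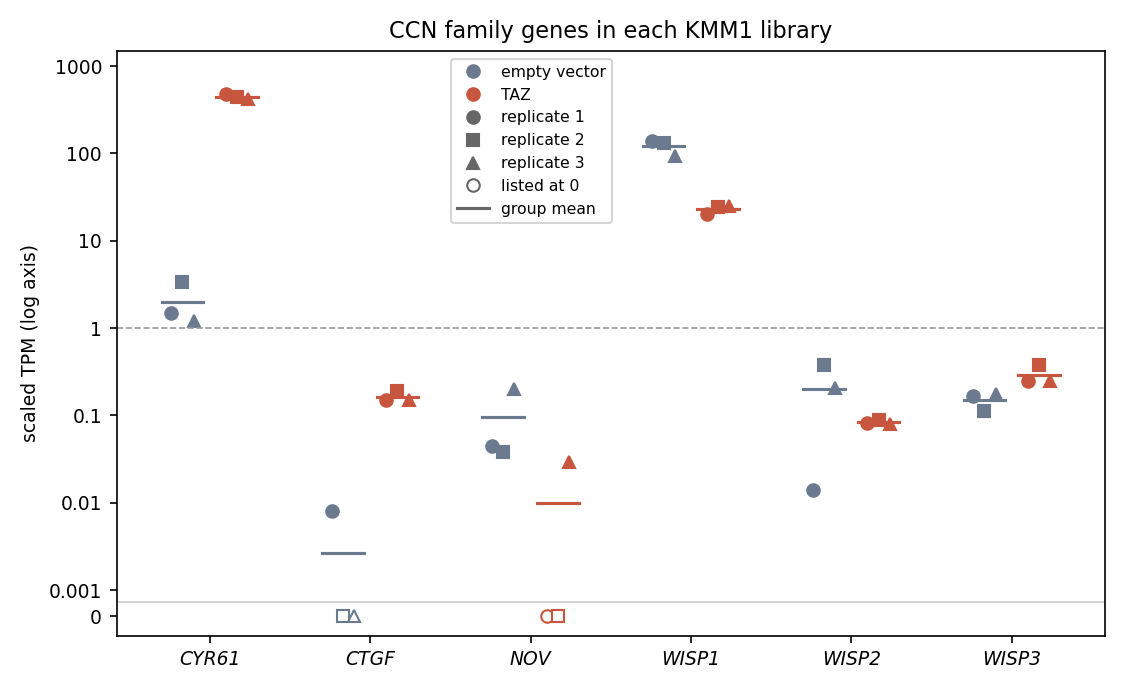
Level of each CCN gene in each library as scaled TPM on a log axis, with empty vector libraries in grey and TAZ libraries in red; horizontal bars are group means of 3 libraries, open symbols stand for a listed 0 and the dashed line marks 1 TPM. CYR61 rises and WISP1 falls with no overlap, and the remaining 4 genes stay under 1 scaled TPM in all 6 libraries.

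WISP1 (CCN4, ENSG00000104415.9, chromosome 8, 134203282 to 134242587, plus strand, hg19) acts on osteoblasts and binds matrix proteoglycans. It was the abundant CCN gene of the control cells and fell with TAZ. Its level was 138, 130.0 and 94.5 scaled TPM in the controls and 20.1, 24.5 and 24.9 in the TAZ libraries. The highest TAZ library was well under the lowest control. The log2 difference was -2.32 ± 0.20 (limma adjusted p = 0.00242), and the control mean was 5.21 times the TAZ mean. Control WISP1 stood at rank 912 to 1476 among all genes and TAZ WISP1 at rank 4590 to 5794, so the gene remained expressed.

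Only 2 of the 6 annotated WISP1 transcripts had any signal. The full-length ENST00000250160.6, with 5 exons, was at 32.5, 39.8 and 31.3 scaled TPM in the controls and 6.95, 8.45 and 8.94 in the TAZ libraries. The 3-exon ENST00000377862.2, which skips exons 2 and 3 and is typed as a target of nonsense-mediated decay in GENCODE release 29, was at 105, 90.3 and 63.3 in the controls and 13.2, 16.0 and 15.9 in the TAZ libraries. Both forms were lower in every TAZ library than in any control. The short form made up 66.9% to 76.4% of WISP1 in the controls and 64.1% to 65.5% with TAZ. Its depth lay only on its last exon, which starts at the same base as exon 5 of the long form (134239654), while its exons 1 and 2 were listed at 0 in all libraries. The division of reads between the forms therefore rests on 1 shared exon. The forms are 3844 and 1319 bases long, and TPM divides by length. The summed WISP1 level, its rank and its family share thus depend on that division too.

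Exons 2 and 3, which only the long form held among the forms with signal, gave a reading of WISP1 that does not need that division. Exon 2 had 41.9, 34.6 and 43.0 reads per base per gigabase in the controls and 10.03, 7.71 and 10.1 in the TAZ libraries. Exon 3 had 12.8, 12.9 and 20.9 in the controls and 5.04, 5.84 and 6.54 with TAZ. Neither exon overlapped between groups. The control mean was 4.30 times the TAZ mean in exon 2, 2.68 times in exon 3, 4.31 times in exon 4 and 3.74 times in exon 5. For exon 1 the ratio was 5.01, with a listed 0 in TAZ library 1. All 5 exons had less depth in every TAZ library than in every control.

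**Figure D3:**
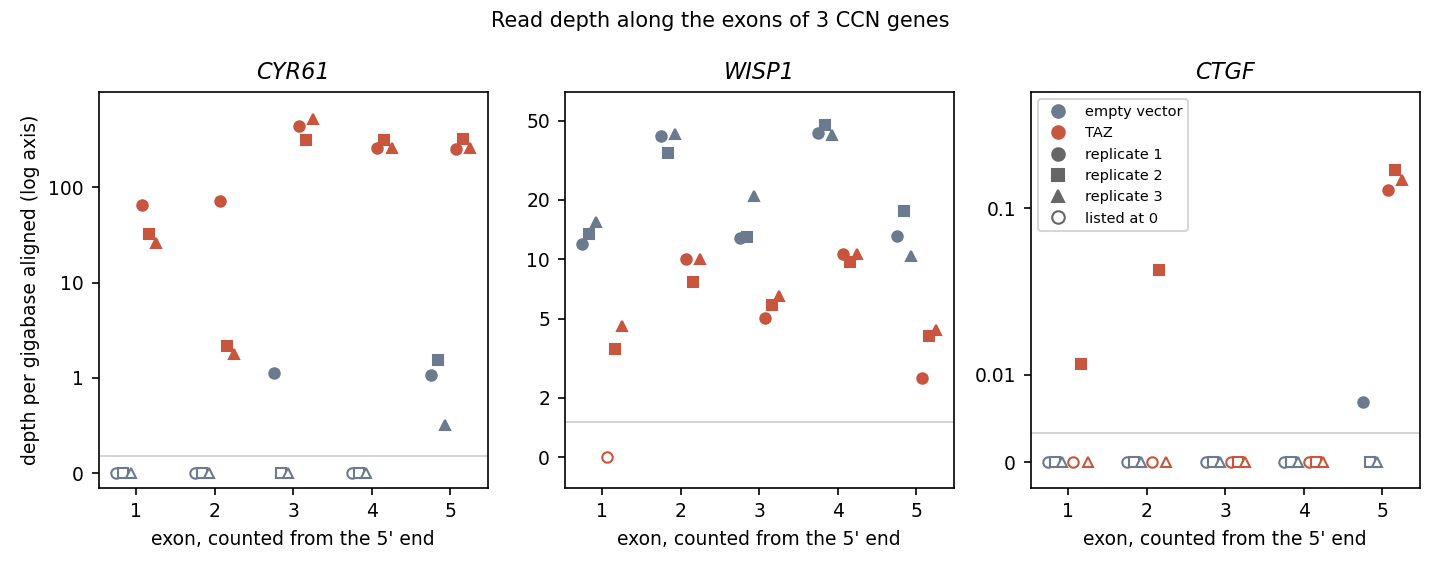
Read depth per gigabase of aligned sequence for exons 1 to 5 of the long transcripts of CYR61, WISP1 and CTGF, on log axes that differ between panels; each symbol is 1 library and open symbols stand for a listed 0. CYR61 exons 3 to 5 reach 254 to 518 in the TAZ libraries, all 5 WISP1 exons sit lower with TAZ, and CTGF shows depth mainly on exon 5, at most 0.169.

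Over all transcripts of the 6 members, 27 exons had depth in some library and were compared by an exact two-sided permutation test over libraries. For 13 of them the exact permutation p was 0.1, the smallest that 3 against 3 libraries allow, and the lowest adjusted value was 0.208. They were the 5 exons of CYR61, the 6 WISP1 exons with depth, and the last exons of CTGF and NOV. The design could not bring any single exon under 0.05. A p of 0.1 here means only that the groups did not overlap. The share of such exons over all genes was not computed. Gene levels, a different measure, did not overlap between groups for 24.9% of tested genes. Exons of the same gene are not separate observations.

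NOV (CCN3, ENSG00000136999.4, chromosome 8, 120428546 to 120436593, plus strand, hg19) restrains growth in several cell types and can bind NOTCH1. Its level was 0.0450, 0.0378 and 0.201 scaled TPM in the controls and 0, 0 and 0.0294 in the TAZ libraries. The groups did not overlap, but all values were small and came from the last exon alone. The limma fit without a filter gave -0.11 ± 0.06 (adjusted p = 0.580).

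WISP2 (CCN5, ENSG00000064205.6, chromosome 20, 43343485 to 43357150, plus strand, hg19) lacks the cystine-knot module of its relatives. Its level was 0.0141, 0.380 and 0.208 scaled TPM in the controls and 0.0814, 0.0892 and 0.0799 in the TAZ libraries. The TAZ libraries fell inside the range of the controls (limma without a filter, -0.14 ± 0.13, adjusted p = 0.656). The coding transcript ENST00000372865.4 was above 0 in control libraries 2 and 3 and TAZ library 1 only, at 0.362, 0.0513 and 0.0433. The rest of the signal was on ENST00000497421.1 and ENST00000471629.1, which carry no coding annotation.

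WISP3 (CCN6, ENSG00000112761.14, chromosome 6, 112375275 to 112392171, plus strand, hg19) is mutated in an inherited disease of joint cartilage. Its level was 0.167, 0.111 and 0.177 scaled TPM in the controls and 0.250, 0.378 and 0.247 in the TAZ libraries. The groups did not overlap, and the limma fit without a filter gave 0.16 ± 0.11 (adjusted p = 0.650). In 5 of the libraries all of this signal was on the last exon of ENST00000361714.1, and TAZ library 3 had it on exons 1, 3 and 5 of another coding transcript, ENST00000368666.2. The end of WISP3 overlaps TUBE1 on the opposite strand by 192 bases, and TUBE1 was at 4.74 to 5.56 scaled TPM in the controls and 5.09 to 6.65 with TAZ. Whether strand was used in counting is not stated in the labels or headers. In the fit without a filter 16.9% of genes did not overlap between groups, against 3 of these 4 low members (CTGF, NOV and WISP3). Over these 4 genes an exact permutation test gave p = 0.1 for those 3 (adjusted p = 0.133) and 0.4 for WISP2.

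Neighbouring genes were read for signal that could be shared with a member; 9 lay within 10 kb. The nearest to CYR61 was ENSG00000272691.1, 2018 bases away on the opposite strand, at 0, 0.211 and 0 scaled TPM in the controls and 0.630, 2.26 and 1.29 with TAZ. Its groups did not overlap, and it was under the abundance filter (limma without a filter, 1.11 ± 0.28, adjusted p = 0.247). DDAH1, which degrades an inhibitor of nitric oxide synthesis, lies 2510 bases from CYR61 on the opposite strand. It was at 1.67, 0.990 and 1.08 scaled TPM in the controls and 3.79, 3.40 and 3.21 in the TAZ libraries, higher with TAZ in each (log2 difference 1.00 ± 0.19, limma adjusted p = 0.0482). That call held in 4 of 14 other settings. NDRG1, 6826 bases from WISP1 on the opposite strand, was at 0.358, 110.1 and 97.4 in the controls and 53.3, 23.4 and 25.4 with TAZ (limma adjusted p = 0.919); control library 1 stood alone in it, unlike in WISP1. WISP1-UT1 lies inside the last exon of WISP1 and was at 1.35 to 2.85 in the controls and 1.00 to 2.38 with TAZ (adjusted p = 0.664). The genes overlapping CTGF and NOV on the other strand were listed at 0 everywhere.

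Transcripts of several receptors for CCN proteins were also present, while protein was not measured. Those of ITGB3, ITGA5 and ITGA2B were under 1 scaled TPM in all libraries. Of 14 receptor genes 10 were tested, 1 rose and 0 fell, against 2.25% and 0.964% of all tested genes. The median of their log2 differences was 0.46, against -0.05 for all tested genes, and 0.13 for the 8 whose control mean reached 1 scaled TPM. At an unadjusted p under 0.05 limma put 4 higher and 0 lower, against 7.46% and 10.5% of all tested genes. ITGB2, the beta subunit of leukocyte integrins, was at 0.491, 0.367 and 0.782 scaled TPM in the controls and 31.2, 15.6 and 13.4 in the TAZ libraries (log2 difference 3.68 ± 0.33, adjusted p = 0.00258). Its partner ITGAM was not tested and stood at 0.630 to 1.64 in the controls and 0.153 to 0.481 with TAZ. The vitronectin receptor subunit ITGAV, to which CYR61 binds, was at 3.34 to 3.85 and 4.92 to 9.09 (adjusted p = 0.163), and its partner ITGB5 at 6.83 to 8.12 and 8.57 to 9.68 (adjusted p = 0.333). ITGB1 was at 19.9 to 24.6 and 30.6 to 40.3 (adjusted p = 0.117). SDC4, a heparan sulphate proteoglycan that serves as a co-receptor, was at 46.1 to 51.998 and 70.9 to 79.03 (adjusted p = 0.112). Differences below 0 were found for IGF2R (-0.46), ITGA6 (-0.42), NOTCH1 (-0.20) and LRP6 (-0.07), with adjusted p = 0.324, 0.602, 0.588 and 0.912, and their groups overlapped. Groups did not overlap for 5 of the 10, against 24.9% of all tested genes.

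Growth factors and matrix proteins bind CCN proteins outside the cell, and 1 of their genes rose. Of 10 listed 7 were tested, 1 rose and 0 fell, against 2.25% and 0.964% of all tested genes, and the median was 0.12. At an unadjusted limma p under 0.05, 3 were higher and 0 lower, against 7.46% and 10.5% of all tested genes. The gene that rose was DCN, decorin, a small proteoglycan that binds CTGF. It was at 0.201, 0.138 and 0 scaled TPM in the controls and 3.66, 3.05 and 3.45 in the TAZ libraries (log2 difference 1.98 ± 0.19, limma adjusted p = 0.00298). FN1, fibronectin, was at 0.498 to 1.39 and 2.48 to 2.89 (adjusted p = 0.0825). TGFB1, an inducer of CTGF in many tissues, was at 95.2 to 137 and 107 to 144 and overlapped (adjusted p = 0.784), and VEGFA, which CTGF can bind, ran from 20.3 to 61.2 and from 5.05 to 28.99 (adjusted p = 0.387).

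**Figure D4:**
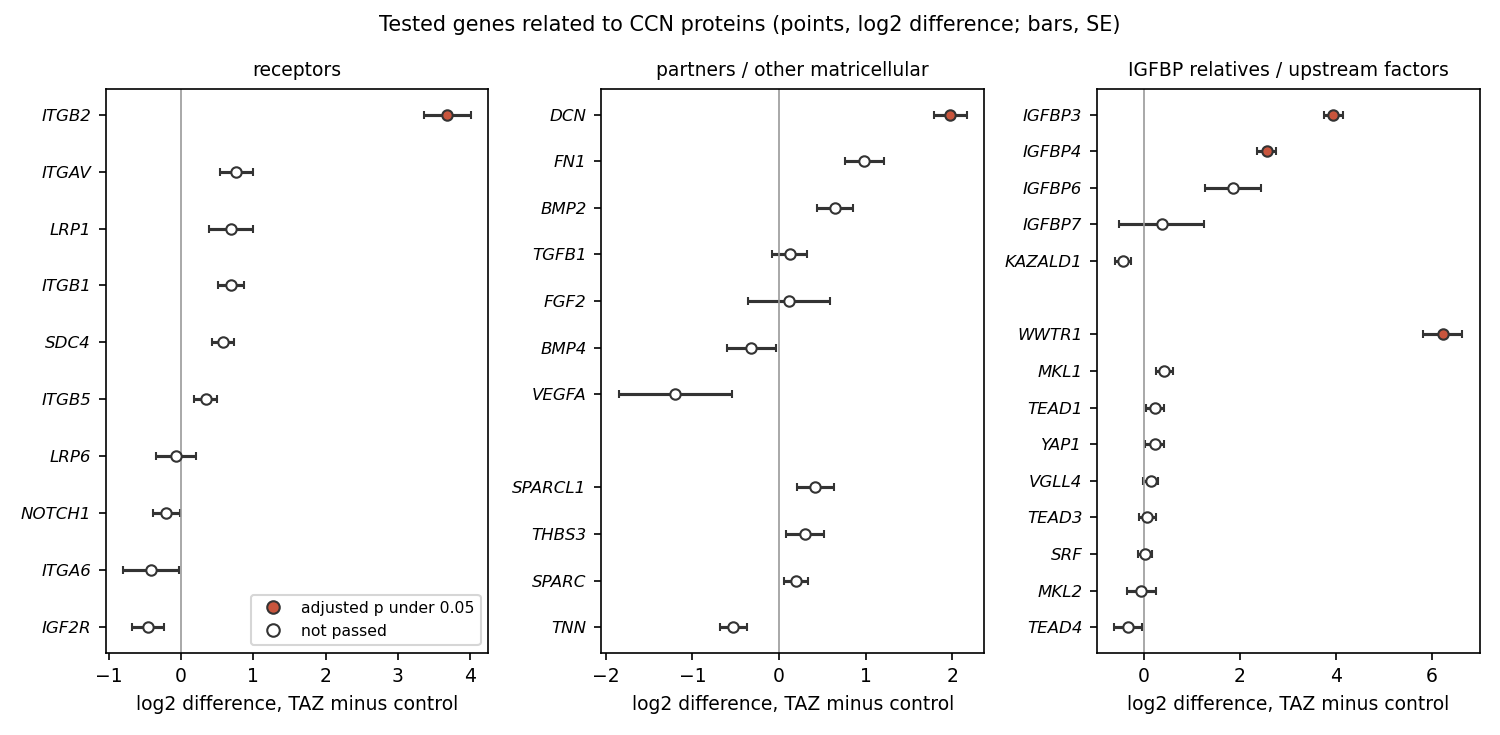
Log2 difference, TAZ minus control, with its SE for the tested genes of 5 lists related to CCN proteins: receptors, binding partners with other matricellular proteins, and genes with a growth factor binding module with upstream factors. Filled points passed an adjusted p of 0.05 (ITGB2, DCN, IGFBP3, IGFBP4 and WWTR1), and the scales differ between panels.

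Genes whose proteins share the growth factor binding module numbered 12, of which 5 were tested, 2 rose and 0 fell. Over all tested genes 2.25% rose and 0.964% fell. The median was 1.85, and 0.37 for the 3 whose control mean reached 1 scaled TPM. At an unadjusted p under 0.05, limma put 3 of the 5 higher and 1 lower, against 7.46% and 10.5% of all tested genes. IGFBP3, a carrier of insulin-like growth factors, was at 0.211, 0.263 and 0.665 scaled TPM in the controls and 20.04, 22.2 and 18.1 with TAZ (limma log2 difference 3.95 ± 0.19, adjusted p = 2.93e-04). IGFBP4 was at 0.472, 0.782 and 0.458 and at 10.2, 7.78 and 6.90 (2.55 ± 0.21, adjusted p = 0.00179). Both had control means under 1 scaled TPM and entered the test only through their TAZ level, as did ITGB2, DCN and FN1 among the genes above. Of 13 other matricellular genes 4 were tested, and 0 rose and 0 fell (median 0.25; limma at an unadjusted p under 0.05, 0 higher and 1 lower); SPARC, the most abundant of them, was at 37.5 to 41.1 and 44.2 to 46.2 (adjusted p = 0.503). The thrombospondin gene THBS1, itself a YAP and TAZ target elsewhere, was under 1 scaled TPM in all libraries.

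Among factors that act upstream of CYR61 and CTGF, the transgene's own gene was the one called. Of 10 genes 9 were tested, and WWTR1 alone rose while 0 fell (median 0.14), against 2.25% and 0.964% of all tested genes. At an unadjusted limma p under 0.05, 2 were higher, WWTR1 among them, and 0 lower. The shares of all tested genes there were 7.46% and 10.5%. The binding partners TEAD3 and TEAD4 were at 23.5 to 28.9 and 25.1 to 47.3 scaled TPM in the controls and 24.8 to 32.02 and 21.2 to 35.7 with TAZ, and TEAD1 was at 1.08 to 1.16 and 1.21 to 1.69 (limma adjusted p = 0.855, 0.593 and 0.538). SRF, which reads the CArG box, was at 42.9 to 44.1 and 43.1 to 46.1 (adjusted p = 0.945).

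The 5 tested genes whose pattern over the 6 libraries lay nearest to CYR61, by the root mean square distance between centred log2(scaled TPM + 1) values, were ANKRD1 (0.449), WWTR1 (0.795), DKK1 (0.910), TMEM189-UBE2V1 (1.07) and AMOTL2 (1.12). In scaled TPM, WWTR1 was highest in TAZ library 1, at 365 against 138 and 145. CYR61 was highest there only after scaling, at 477 against 448 and 416. Before scaling, CYR61 was lowest in TAZ library 1, at 459 TPM against 536 and 511. ANKRD1, DKK1 and AMOTL2 had control means under 1 scaled TPM and were tested only through their TAZ level. This measure favours genes with a large difference. By Pearson correlation, which ignores size, the nearest 5 were BDNF, PARP9, COBL, METTL7A and TRIM49B, with 0 in common.

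Marker genes were read beside these results, since CYR61 and CTGF are abundant in stromal and epithelial cells. All 8 plasma cell markers were tested, and 3 fell (SDC1, IRF4 and SLAMF7) and 0 rose. Over all tested genes 0.964% fell and 2.25% rose. At an unadjusted p under 0.05, limma put 3 lower and 0 higher, against 10.5% and 7.46% of all tested genes. The median log2 difference of the 8 was -0.69, against -0.05 for all tested genes. Their summed levels were 1182 to 1963 scaled TPM in the controls and 1101 to 1281 with TAZ. XBP1, a large part of these sums, was at 908, 157 and 1051 in control libraries 1, 2 and 3 and at 619 to 841 with TAZ. IRF4 and SLAMF7 each passed in 6 of 15 other settings, SDC1 in 14 of 15 (adjusted p = 0.0653 in limma with a replicate block) and KRT8, an epithelial marker, in 11 of 15. Of 9 fibroblast markers 3 were tested and 2 rose, LUM (log2 difference 5.03) and DCN, and the summed level went from 2.31 to 3.10 in the controls to 38.0 to 44.98 with TAZ. COL1A1, the remaining tested one, was at 1.43 to 2.04 in the controls and 1.60 to 1.98 with TAZ (limma adjusted p = 0.949). The other 6 stayed under 1 scaled TPM in all libraries: COL1A2 was at 0.00538 to 0.120 and 0.551 to 0.995 and COL3A1 at 0.0433 to 0.0576 and 0.332 to 0.474, both without overlap, while PDGFRA, PDGFRB, THY1 and FAP overlapped. LUM, DCN and KRT18 entered the test only through their TAZ level. Of 5 epithelial markers 4 were tested and 2 rose, KRT8 (2.89) and KRT18 (3.40), with summed levels of 194 to 322 and 957 to 2293. EPCAM and CDH1 did not pass (limma adjusted p = 0.972 and 0.161). CDH1 went the other way, at 36.9 to 57.0 in the controls and 17.1 to 30.1 with TAZ, without overlap (log2 difference -0.94). At an unadjusted p under 0.05, limma put 2 of these 4 higher and 1 lower, against 7.46% and 10.5% of all tested genes. KRT19 was under 1 scaled TPM in all libraries. The 4 endothelial markers found summed to at most 0.250 in any library. The part of other cells in the CYR61 and WISP1 results was not tested.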

How the data were processed

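The deposited files give, per the file headers, one StringTie run per library against a supplied annotation of 195984 transcripts. The deposited values used were TPM, FPKM and coverage (read depth per base). Per the submitters' processing notes STAR 2.3.0, Bowtie2 2.0.0 and StringTie 1.3.3b were used with hg19; the annotation release and strand setting are not given in the sources used here. Libraries were sequenced in pairs on an Ion Torrent chip per the labels; the pairs are not given in the sources used here.

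TPM was summed per gene, scaled by the median of ratios (28148 genes; factors 0.873 to 1.23) and tested with limma 3.58.1 (trend and robust, R 4.3.3) on log2(scaled TPM + 1), with Benjamini-Hochberg adjustment over all tested genes. This scale understates changes of low genes. Aligned megabases came from the ratio of deposited coverage to FPKM. TPM is not a count, so no count test was run. The fit was tested on simulated data. A call held in another setting where its adjusted p stayed under 0.05. Named are the 6 members, list genes that passed or serve as examples, the 5 genes nearest to CYR61 and neighbours within 10 kb; examples that did not pass were picked with their values in view, and so were ITGAM and THBS1. Gene lists and members were chosen with earlier results of these data known. Coding bases and exon sequences came from GENCODE release 29, matched by transcript and exon length.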

Additional observations from a re-analysis of the deposited data

How the results depend on the processing

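CYR61 was called higher and WISP1 lower in all 15 other settings tried for each (other scalings, FPKM, pseudocounts of 0.1 and 0.01, other filters, limma without trend and robust, a replicate block and each library left out). The log2 difference ranged from 6.99 to 7.95 for CYR61 (limma adjusted p from 5.92e-05 to 0.0126) and from -2.49 to -2.07 for WISP1 (adjusted p from 0.00203 to 0.0394). The count of genes called was 623; it was 352 with no abundance filter and 236 with a replicate block, and 278 to 774 with 1 library left out (410 without control library 1, 349 without control library 2, 278 without TAZ library 2 and 331 without TAZ library 3). Same-numbered libraries did not deviate together (correlations 0.00401, -0.0244 and -0.0549). With 3 libraries per group this check cannot show whether same-numbered libraries were prepared or sequenced together. The cause of the smaller count with a replicate block was not tested. Taking the most abundant transcript of each gene, CYR61 held 96.6% of the family with TAZ instead of 94.9%. The ratio of summed transcript depth, TAZ to control, was 184 for CYR61 and 0.164 for WISP1 as deposited, and 246 and 0.212 per gigabase aligned. By Pearson correlation 0 of the 5 genes nearest to CYR61 were shared. Of 236 further values of named genes, 200 kept their call, 0 reversed and 36 lost it, which were values of IRF4, SLAMF7, KRT8, DDAH1, TMEM189-UBE2V1, DCN and SDC1. For the 4 low members, 34 of 44 values moved by less than 1 SD and 10 by more, 8 of them with smaller pseudocounts. The low members rest on at most 602 aligned bases, which limits what can be said of them.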
